A study of Mus musculus with 20 samples.

Results

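The genes described here are the 7 sirtuins, Sirt1 to Sirt7, and 3 further genes of NAD metabolism, Nampt, Parp1 and Cd38. These 10 genes were taken by symbol from the count tables of bone marrow and kidney, which list 55486 genes each, and all 10 had enough counts to be tested in both tissues. C57BL/6 mice, which the methods give as male and female and as 10 weeks old at the start, were treated over 8 weeks, either with 10 mg/kg oxaliplatin dissolved in 5% dextrose or with the 5% dextrose vehicle. Oxaliplatin is a platinum drug that binds and crosslinks DNA. Each tissue had 5 vehicle-treated and 5 oxaliplatin-treated mice with 1 library per mouse, so 20 libraries in all, and neither a transgene nor a deletion is named for any group. The methods describe marrow from tibia and femur taken 6 days after the last dose, and give no such account for kidney. All 20 libraries carried Y-linked RNA, at 77.5 to 173 CPM (counts relative to library size), and Xist did not exceed 2.88 CPM in any of them. In marrow, the identity markers Ptprc, Mpo, Elane, Hbb-bs and Cd79a summed to between 10700 and 17700 CPM with vehicle and between 3500 and 4780 CPM with oxaliplatin. In kidney, Slc34a1, Umod, Slc12a3, Aqp2 and Nphs1 summed to between 11800 and 12700 CPM with vehicle and between 10200 and 12900 CPM with oxaliplatin, and each tissue therefore carried the markers of its label. Library totals ran from 30660153 to 41140527 counts in marrow and from 24393007 to 30925430 counts in kidney. Values below are CPM scaled by the TMM method within a tissue, so a given CPM value is not on the same scale in marrow and kidney.

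NAD is a redox carrier that is also consumed as a substrate. Sirtuins use it to remove acetyl and other acyl groups from proteins, Parp1 uses it to build poly ADP-ribose at DNA breaks, and Cd38 cleaves it at the cell surface and inside cells, and all of these reactions release nicotinamide. Nampt is the rate-limiting enzyme of the salvage route that returns nicotinamide to NAD, while the de novo route builds NAD from tryptophan and runs mainly in liver and kidney.

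In bone marrow, Sirt1 fell and Nampt rose after oxaliplatin, and the other 8 genes did not pass the test. In kidney, Sirt3 and Sirt7 fell, Cd38 rose and 7 genes did not pass. The test was edgeR's quasi-likelihood test with a Benjamini-Hochberg adjusted p under 0.05 over all genes tested in the tissue. Against 2 of 10 genes in marrow, 33.1% of the 22363 genes tested there passed, and against 3 of 10 in kidney, 29.4% of 19293 passed. With only 10 genes, neither count is read as a departure from these shares, and with DESeq2 Sirt2 passed in marrow as well. The groups did not overlap for 3 of the 10 genes in marrow, compared with 24.9% of all genes, and for 3 of 10 in kidney, compared with 20.7%. None of the 10 changed by more than 1.5-fold in edgeR in either tissue, whereas 23.3% of all marrow genes and 11.5% of all kidney genes passed with a change of that size. The median absolute log2 fold change of the 10 genes was 0.19 in marrow and 0.18 in kidney, beside 0.38 and 0.25 over all genes tested. Since RNA was taken from whole tissue, fewer cells of a type and less RNA per cell cannot be told apart in any of these values.

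**Figure D1:**
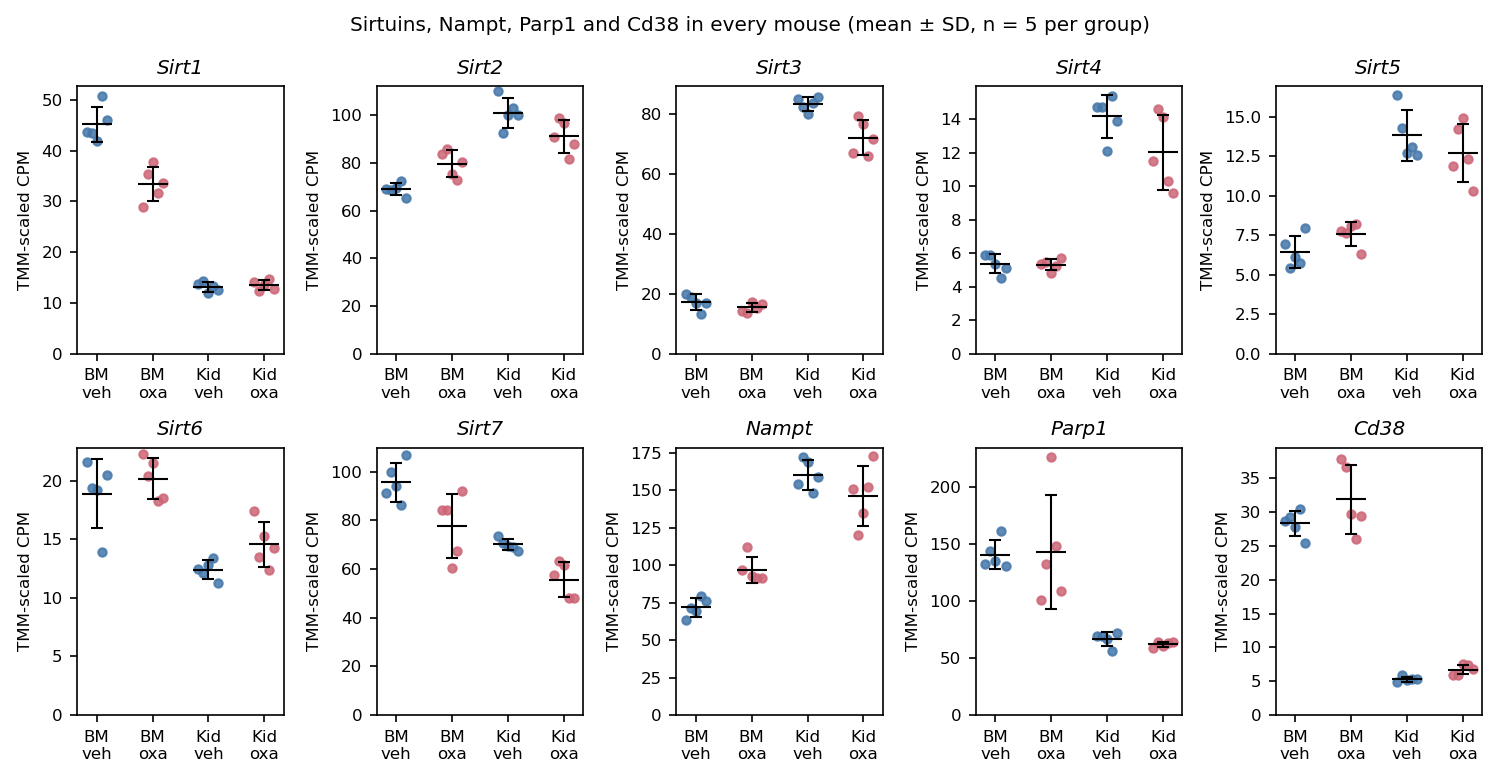
TMM-scaled CPM of each of the 10 genes (vertical axis, starting at 0) in every mouse, for bone marrow (BM) and kidney (Kid) with vehicle (veh, blue) or oxaliplatin (oxa, red). Points are mice, bars are the mean and SD over 5 mice, and the tissues are scaled separately. All 5 oxaliplatin points lie below the vehicle points for Sirt1 in marrow and above them for Nampt in marrow.

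Sirt1 (ENSMUSG00000020063, GRCm38 chr10:63319005-63381704, minus strand) encodes the mainly nuclear deacetylase that acts on p53, FOXO proteins and histones. In marrow of vehicle-treated mice 1 to 5 it measured 43.6, 43.4, 41.9, 50.8 and 46.1 CPM, and in oxaliplatin-treated mice 1 to 5 it measured 28.8, 35.3, 37.8, 31.6 and 33.6 CPM. Every oxaliplatin-treated mouse was below every vehicle-treated mouse. The mean went from 45.2 ± 3.50 to 33.4 ± 3.47 CPM (SD, n = 5), a log2 fold change of -0.435 with a standard error of 0.095 (adjusted p = 0.00328, edgeR). Leaving out any 1 mouse kept the adjusted p between 0.000778 and 0.0182 in edgeR. In kidney Sirt1 measured 13.8, 14.3, 11.9, 13.4 and 12.5 CPM with vehicle and 14.1, 12.4, 13.6, 14.7 and 12.8 CPM with oxaliplatin. The kidney groups overlapped, and the 95% interval of the log2 fold change ran from -0.16 to 0.23 (adjusted p = 0.802, edgeR). An antisense gene, Gm16145, shares 65 bases, or 1.22%, of the Sirt1 exons, and strand use in counting was not stated.

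The upstream sequences of Sirt1 and Nampt are shown because these were the 2 genes that passed in marrow, in opposite directions. RefSeq start sites on GRCm38.p6 were matched for all 10 genes, giving 12 windows of the 250 bases before a start. The Sirt1 stretch is chr10:63339051-63339285 on the minus strand, with 15 exonic bases of its window left out, and the Nampt stretch is chr12:32820085-32820334 on the plus strand. Both stretches lie inside the gene spans given in this text, which begin further upstream than the RefSeq starts used here. Capitals mark E-boxes (CACGTG) and GC boxes (GGGCGG or its complement CCGCCC), searched on both strands, and 2 GC boxes of Sirt1 overlap each other.
Sirt1: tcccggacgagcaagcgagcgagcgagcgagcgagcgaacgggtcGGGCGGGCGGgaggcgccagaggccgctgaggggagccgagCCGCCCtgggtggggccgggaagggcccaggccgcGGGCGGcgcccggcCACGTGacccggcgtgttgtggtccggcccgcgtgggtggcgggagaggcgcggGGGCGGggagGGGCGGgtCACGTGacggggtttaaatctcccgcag
Nampt: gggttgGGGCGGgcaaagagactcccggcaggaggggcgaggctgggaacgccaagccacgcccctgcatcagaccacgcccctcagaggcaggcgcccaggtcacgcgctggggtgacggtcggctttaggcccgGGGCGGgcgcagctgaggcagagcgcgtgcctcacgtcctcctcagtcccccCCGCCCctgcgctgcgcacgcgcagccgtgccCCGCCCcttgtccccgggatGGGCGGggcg
The Sirt1 stretch holds 2 E-boxes, 6 GC boxes and 36 CpG dinucleotides, and the Nampt stretch holds 0 E-boxes, 5 GC boxes and 27 CpG dinucleotides. Among 32851 RefSeq windows of 250 bases, 6.02% hold an E-box, 32.7% hold a GC box and the median CpG count is 6. Among the 12 windows of the 10 genes, 2 hold an E-box, 1 of Sirt1 and 1 of Parp1. The Cd38 window holds 1 CpG dinucleotide, and the other 11 windows hold between 12 and 39. These are matches of letters and not measured sites.

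Sirt7 (ENSMUSG00000025138, GRCm38 chr11:120618372-120625240, minus strand) encodes the nucleolar sirtuin known for its links to ribosomal RNA transcription. In kidney it measured 73.6, 70.9, 69.5, 69.1 and 67.6 CPM with vehicle and 57.4, 63.2, 61.5, 47.9 and 48.3 CPM with oxaliplatin in mice 1 to 5. No value with oxaliplatin reached the lowest vehicle value. The kidney log2 fold change was -0.33 with a standard error of 0.080 (adjusted p = 0.00468, edgeR), and it passed without any 1 of the 10 mice. In marrow the values were 91.4, 100, 94.0, 86.2 and 107 CPM with vehicle and 84.1, 84.3, 60.5, 67.3 and 92.2 CPM with oxaliplatin. Only oxaliplatin-treated mouse 5 lay within the vehicle range, and the log2 fold change of -0.30 with a standard error of 0.12 did not pass (adjusted p = 0.0661, edgeR). Without that mouse the adjusted p was 0.0349 in edgeR. The Sirt7 exons share 124 bases, or 2.41%, with Mafg on the same strand.

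Sirt6 (ENSMUSG00000034748, GRCm38 chr10:81621785-81627797, minus strand), a chromatin-bound sirtuin with a role in DNA repair, did not pass in either tissue. In marrow it averaged 18.9 ± 2.98 CPM with vehicle and 20.2 ± 1.77 CPM with oxaliplatin (SD, n = 5, adjusted p = 0.619 in edgeR). In kidney it averaged 12.4 ± 0.816 and 14.6 ± 1.88 CPM (SD, n = 5, adjusted p = 0.0967 in edgeR), and the groups overlapped in both tissues. The kidney log2 fold change of Sirt6, 0.23, became 0.36 with library-size scaling (adjusted p = 0.013, edgeR), 0.28 with Y-linked RNA as a covariate (adjusted p = 0.0431) and 0.29 without oxaliplatin-treated mouse 4 (adjusted p = 0.0387), and passed in these.

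Sirt2 (ENSMUSG00000015149, GRCm38 chr7:28766735-28788661, plus strand) encodes the mainly cytosolic sirtuin that deacetylates tubulin. In marrow it measured 69.2, 68.5, 69.4, 72.2 and 65.3 CPM with vehicle and 83.8, 85.9, 75.4, 72.6 and 80.4 CPM with oxaliplatin in mice 1 to 5. All oxaliplatin-treated mice lay above all vehicle-treated mice, mouse 4 by the smallest margin. The log2 fold change of 0.21, with a standard error of 0.076, nevertheless missed the threshold (adjusted p = 0.0521, edgeR). With DESeq2 it passed, and over the 9 settings other than leaving out 1 library it passed in 6, with log2 fold changes between 0.19 and 0.36. Those 6 include the comparison without oxaliplatin-treated mice 3 and 4, which was added after the values were seen. These mice had the lowest Sirt2 of the treated group, so leaving them out raises the estimate. In kidney the values were 110, 92.4, 100, 103 and 99.9 CPM with vehicle and 91.0, 98.8, 96.6, 81.7 and 87.7 CPM with oxaliplatin. These groups overlapped, with a log2 fold change of -0.15 and a standard error of 0.069 (adjusted p = 0.11, edgeR).

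Of the 3 mitochondrial sirtuins, Sirt3 passed the test in kidney, and neither Sirt4 nor Sirt5 passed in either tissue. Sirt3 (ENSMUSG00000025486, GRCm38 chr7:140863666-140882309, minus strand) encodes the main deacetylase of the mitochondrial matrix. Its kidney values were 85, 82.4, 80, 83.8 and 85.7 CPM with vehicle and 66.9, 79.3, 76.5, 66 and 71.5 CPM with oxaliplatin in mice 1 to 5. The highest value with oxaliplatin, in mouse 2, was just under the lowest vehicle value, in mouse 3. Sirt3 fell by 0.21 on the log2 scale, with a standard error of 0.065 (adjusted p = 0.0211, edgeR), or by 13.6%. This call was lost without vehicle-treated mouse 1 or 5 or oxaliplatin-treated mouse 1 or 4, with adjusted p up to 0.0639 in edgeR, with library-size scaling, for which the log2 fold change was -0.08 (adjusted p = 0.323, edgeR), and without a filter beyond 1 count (adjusted p = 0.0528, edgeR). In marrow Sirt3 averaged 17.1 ± 2.62 and 15.4 ± 1.62 CPM with overlapping groups (SD, n = 5, adjusted p = 0.386 in edgeR). Its exons share 418 bases, or 7%, with Ric8a and 342 bases, or 5.73%, with Psmd13, both on the opposite strand.

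Sirt4 (ENSMUSG00000029524, GRCm38 chr5:115478010-115484725, minus strand), a mitochondrial sirtuin known for restraining glutamate dehydrogenase, averaged 14.2 ± 1.27 CPM with vehicle and 12.0 ± 2.25 CPM with oxaliplatin in kidney (SD, n = 5, adjusted p = 0.154 in edgeR). The marrow means of Sirt4 were 5.35 ± 0.570 and 5.31 ± 0.328 CPM (SD, n = 5, adjusted p = 0.958 in edgeR). Sirt5 (ENSMUSG00000054021, GRCm38 chr13:43365496-43395203, plus strand), which removes succinyl and malonyl groups, averaged 13.8 ± 1.58 and 12.7 ± 1.85 CPM in kidney (SD, n = 5, adjusted p = 0.43 in edgeR). In marrow Sirt5 averaged 6.45 ± 1.02 and 7.60 ± 0.760 CPM (SD, n = 5, adjusted p = 0.248 in edgeR). Both genes had overlapping groups in both tissues, and as few as 157 counts of Sirt4 and 187 counts of Sirt5 stood behind a marrow value.

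Nampt (ENSMUSG00000020572, GRCm38 chr12:32819545-32853349, plus strand), whose upstream sequence is given above, measured 63.2, 71.6, 69.2, 79.7 and 76.2 CPM in marrow of vehicle-treated mice 1 to 5. With oxaliplatin it measured 96.8, 112, 93.0, 91.6 and 91.4 CPM. Every oxaliplatin-treated mouse was above every vehicle-treated mouse, with mouse 2 the highest. The log2 fold change was 0.43 with a standard error of 0.090 (adjusted p = 0.00253, edgeR), or 1.35-fold. Without any 1 mouse the log2 fold change stayed between 0.37 and 0.49. In kidney Nampt measured 154, 172, 169, 148 and 159 CPM with vehicle and 151, 120, 135, 152 and 173 CPM with oxaliplatin. The kidney groups overlapped, and the 95% interval of the log2 fold change ran from -0.31 to 0.045 (adjusted p = 0.251, edgeR).

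Of the NAD consumers, Cd38 passed in kidney and Parp1 in neither tissue. Cd38 (ENSMUSG00000029084, GRCm38 chr5:43868553-43912375, plus strand) measured 4.89, 5.94, 5.14, 5.27 and 5.26 CPM in kidney with vehicle and 5.99, 5.99, 7.48, 7.37 and 6.81 CPM with oxaliplatin in mice 1 to 5. The groups were separate by a narrow margin, between 5.94 CPM in vehicle-treated mouse 2 and 5.99 CPM in oxaliplatin-treated mice 1 and 2. Cd38 rose by a log2 fold change of 0.34 with a standard error of 0.12 (adjusted p = 0.043, edgeR). The call rested on counts between 119 and 227 per library and held without vehicle-treated mouse 2 or oxaliplatin-treated mouse 1 or 2. It was lost without any of the other 7 mice, with adjusted p up to 0.094 in edgeR, and also without a filter beyond 1 count (adjusted p = 0.113) and with Y-linked RNA as a covariate (adjusted p = 0.111). In marrow Cd38 measured 28.7, 29.3, 27.8, 30.4 and 25.5 CPM with vehicle and 37.9, 36.6, 29.7, 26.0 and 29.4 CPM with oxaliplatin. There, oxaliplatin-treated mice 1 and 2 stood above the vehicle range and the other 3 within it (log2 fold change 0.17, adjusted p = 0.277 in edgeR).

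Parp1 (ENSMUSG00000026496, GRCm38 chr1:180568924-180601254, plus strand) was the most variable of the 10 genes in marrow after oxaliplatin. It measured 132, 144, 135, 161 and 131 CPM with vehicle and 101, 132, 226, 148 and 109 CPM with oxaliplatin in mice 1 to 5. Mice 1 and 5 lay below the vehicle range and mouse 3 above it. The coefficient of variation was 8.79% with vehicle and 34.9% with oxaliplatin, and the log2 fold change was 0.027 with a standard error of 0.19 (adjusted p = 0.93, edgeR). In kidney Parp1 averaged 66.5 ± 6.26 CPM with vehicle and 62.0 ± 2.38 CPM with oxaliplatin (SD, n = 5), with overlapping groups (adjusted p = 0.294, edgeR).

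Oxaliplatin-treated mice 3 and 4 stood apart in marrow. Their neutrophil markers (8 genes, among them S100a8 and Ltf) summed to 6800 and 9270 CPM, compared with 21300, 20300 and 25900 CPM in oxaliplatin-treated mice 1, 2 and 5 and with 17400 to 21300 CPM in vehicle-treated mice. The same 2 mice had the highest Parp1 and the lowest Sirt7 of the treated group. In a comparison without both of them, chosen after these values were seen, the log2 fold changes of Sirt1 and Nampt were -0.47 and 0.47 and both passed as before. Those of Sirt2 and Cd38 were 0.28 and 0.29. Those of Parp1 and Sirt7 were -0.30 and -0.14. The mice left out also had the lowest Sirt2 of the treated group, and mouse 4 had its lowest Cd38. Since they held extreme values of Parp1, Sirt7, Sirt2 and Cd38, the changes of these genes without them are descriptions and carry no test.

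**Figure D2:**
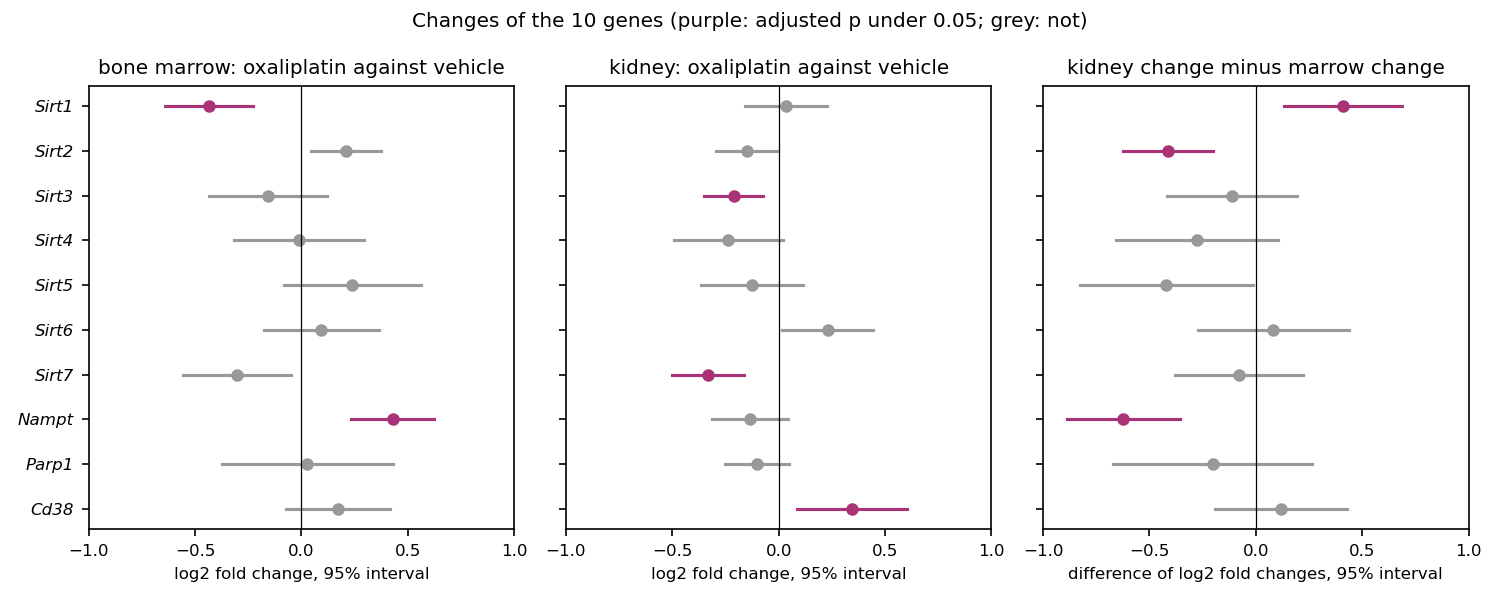
Log2 fold changes of the 10 genes with 95% intervals in bone marrow (left) and kidney (middle), and the kidney change minus the marrow change (right). Purple marks an adjusted p under 0.05, and since the intervals are not adjusted over genes, some grey ones do not cross 0. Sirt1, Sirt2 and Nampt are purple on the right.

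Markers of several cell types moved with treatment in both tissues, and their part in the results for the 10 genes was not tested. Over all genes tested, 16.3% rose and 16.8% fell in marrow, and 14.4% rose and 15% fell in kidney. Lists with only 1 or 2 called markers are not read as departures from these shares. In marrow all 10 late erythroid markers fell, from summed levels of 31400 to 54500 CPM with vehicle to 3850 to 10400 CPM with oxaliplatin, and all 8 B cell markers fell, from 349 to 596 CPM to 113 to 160 CPM. All 7 adipocyte markers rose, from 81.5 to 148 CPM to 531 to 2720 CPM, as did 5 of 7 macrophage markers, from 1020 to 1410 CPM to 1270 to 2750 CPM. Of 5 plasma cell markers, 3 rose (245 to 301 CPM against 425 to 701 CPM), of 5 skeletal muscle markers, 4 rose (9.51 to 93.0 CPM against 39.5 to 701 CPM), and of 4 endothelial markers, 3 rose (180 to 229 CPM against 229 to 456 CPM). None of the 8 neutrophil markers passed, and 1 of 6 T and NK cell markers fell (112 to 152 CPM against 68.8 to 107 CPM). The median log2 fold change of these 6 was 0.12, so the lower sum does not describe the list as a whole. In kidney 4 of 6 proximal tubule markers fell (27700 to 33300 CPM against 15600 to 22000 CPM). All 3 podocyte markers (219 to 227 CPM against 318 to 389 CPM), 3 of 4 endothelial markers (186 to 199 CPM against 225 to 323 CPM) and 5 of the 6 adipocyte markers tested (26.0 to 46.9 CPM against 66.9 to 191 CPM) rose. Of 7 macrophage markers in kidney, 4 fell and 1 rose (43.3 to 52.9 CPM against 24.7 to 37.7 CPM), and of the 5 tubular injury markers tested, 2 rose (495 to 564 CPM against 704 to 791 CPM). Single markers rose among 4 of loop and distal tubule (4400 to 5140 CPM against 5330 to 5930 CPM) and 3 of collecting duct (356 to 466 CPM against 455 to 610 CPM). The blood cell lists were low in kidney: 1 of 8 late erythroid markers tested rose (301 to 469 CPM against 103 to 818 CPM), 1 of 2 B cell markers rose, 1 of 4 plasma cell markers rose and 2 fell, none of 3 T and NK cell markers passed, and the neutrophil markers summed to at most 3.33 CPM. The skeletal muscle markers summed to at most 2.84 CPM in kidney. In marrow the proximal tubule, loop and distal tubule and collecting duct lists each summed to at most 10.8 CPM. Of the 3 podocyte markers only 1 had enough counts to be tested in marrow, and it rose. The podocyte sum went from 7.13 to 10.6 CPM to 50.5 to 108 CPM, which does not show a rise of the list as a set. Of 5 tubular injury markers tested in marrow, 1 rose and 1 fell. No marker was at 0 in all libraries of either tissue.

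The response differed between the tissues for Sirt1, Sirt2 and Nampt. This was tested as the tissue by treatment interaction in 1 edgeR fit over all 20 libraries, in which 30.1% of 24321 genes passed, beside 3 of these 10. The 20 libraries were scaled together in that fit, so its differences are not the exact difference of the values above. For Nampt the log2 fold change in kidney was lower than in marrow by a difference of -0.62 with a standard error of 0.13 (adjusted p = 0.00074, edgeR). For Sirt2 the difference was -0.41 with a standard error of 0.10 (adjusted p = 0.0036, edgeR), although Sirt2 passed in neither tissue alone. For Sirt1 the kidney change was higher than the marrow change by 0.41 with a standard error of 0.13 (adjusted p = 0.0244, edgeR). The estimates of all 3 genes had opposite signs in the 2 tissues, but none of the 3 passed in kidney, so an opposite change there was not shown. Sirt2 and Nampt passed whichever 1 library was left out. Sirt1 did not pass without any 1 of marrow vehicle-treated mice 1 and 4, marrow oxaliplatin-treated mice 1, 4 and 5, and kidney vehicle-treated mice 3 and 5, with adjusted p up to 0.0875 in edgeR, nor without a filter beyond 1 count (adjusted p = 0.0974). Sirt3 and Sirt7, which passed in kidney and not in marrow, did not differ detectably between tissues (95% intervals of the difference -0.42 to 0.19 for Sirt3 and -0.38 to 0.22 for Sirt7), nor did Cd38 (-0.19 to 0.43).

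Levels of different genes were compared as TMM-scaled CPM per kilobase of annotated exon in vehicle-treated mice. The length joins the exons of all annotated transcripts of a gene, and the order depends on that choice. Without division by length, marrow Sirt5 averaged 6.45 CPM and Sirt4 5.35 CPM, the reverse of their order below. In marrow Parp1 was highest at 26.5 ± 2.33, followed by Sirt7 at 18.6 ± 1.57, Nampt at 14.2 ± 1.26 and Sirt2 at 13.7 ± 0.487 (SD, n = 5). The ranges of Nampt and Sirt2 overlapped. Sirt1 followed at 8.47 ± 0.657, then Cd38 at 7.29 ± 0.470 and Sirt6 at 6.80 ± 1.07, which overlapped each other. The mitochondrial sirtuins were lowest in marrow, with Sirt3 at 2.87 ± 0.438, Sirt4 at 2.23 ± 0.238 and Sirt5 at 1.06 ± 0.167, of which Sirt3 and Sirt4 overlapped. In kidney the order was led by Nampt at 31.8 ± 2.02 and Sirt2 at 20.1 ± 1.26 CPM per kilobase. Sirt3 at 14 ± 0.381, Sirt7 at 13.6 ± 0.443 and Parp1 at 12.6 ± 1.18 came next, and neighbours in this run overlapped. Sirt4 at 5.90 ± 0.528, Sirt6 at 4.46 ± 0.293, Sirt1 at 2.48 ± 0.185 and Sirt5 at 2.27 ± 0.260 were followed by Cd38 at 1.36 ± 0.1, with Sirt1 and Sirt5 overlapping.

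With the 20 libraries on 1 scale, Sirt3 was 6.54 times as high in vehicle-treated kidney as in vehicle-treated marrow, Sirt4 3.56 times, Nampt 3.00 times, Sirt5 2.89 times and Sirt2 1.98 times, and the mice of the 2 tissues did not overlap for any of them. Cd38 was 3.97 times, Sirt1 2.54 times and Parp1 1.57 times as high in marrow. Sirt6 and Sirt7 were near equal, with kidney at 0.882 and 0.985 of the marrow level and overlapping ranges. These ratios are descriptions, because tissue was not randomised and scaling across tissues rests on the bulk of genes being alike.

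The genes most like Sirt1 over the 20 libraries, on log2 CPM after each tissue's mean was subtracted, were Nup153 (Pearson r 0.907), which encodes a nuclear pore protein, Otud1 (0.907), which encodes a deubiquitinase, and Zc3hav1 (0.906), which encodes an antiviral zinc finger protein, among 8485 genes compared. Their log2 fold changes were -0.49, -0.88 and -0.72 in marrow and 0.016, 0.15 and 0.11 in kidney. The same measure for Sirt1 was -0.60 with Sirt2 and -0.53 with Nampt. The libraries share the treatment groups, depth and scaling, so these values are descriptions and carry no test.

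Beyond the 10 genes, a list of 58 further genes of NAD synthesis, use and transport and of sirtuin partners and substrates was read in the same fits. In marrow 53 could be tested, of which 31 passed in edgeR, 11 higher and 20 lower, and 22 of these changed by more than 1.5-fold. Over all marrow genes tested 33.1% passed, 16.3% higher and 16.8% lower, and 23.3% passed with a change beyond 1.5-fold. In kidney 54 could be tested, of which 28 passed, 12 higher and 16 lower, and 13 changed by more than 1.5-fold, beside 29.4% of all kidney genes passing, 14.4% higher and 15% lower, and 11.5% beyond 1.5-fold. The smaller groups below are read against the same shares of all genes. The median absolute log2 fold change of the list was 0.47 in marrow and 0.25 in kidney, beside 0.38 and 0.25 over all genes. The interaction passed for 26 of 55 genes, beside 30.1% of all genes.

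**Figure D3:**
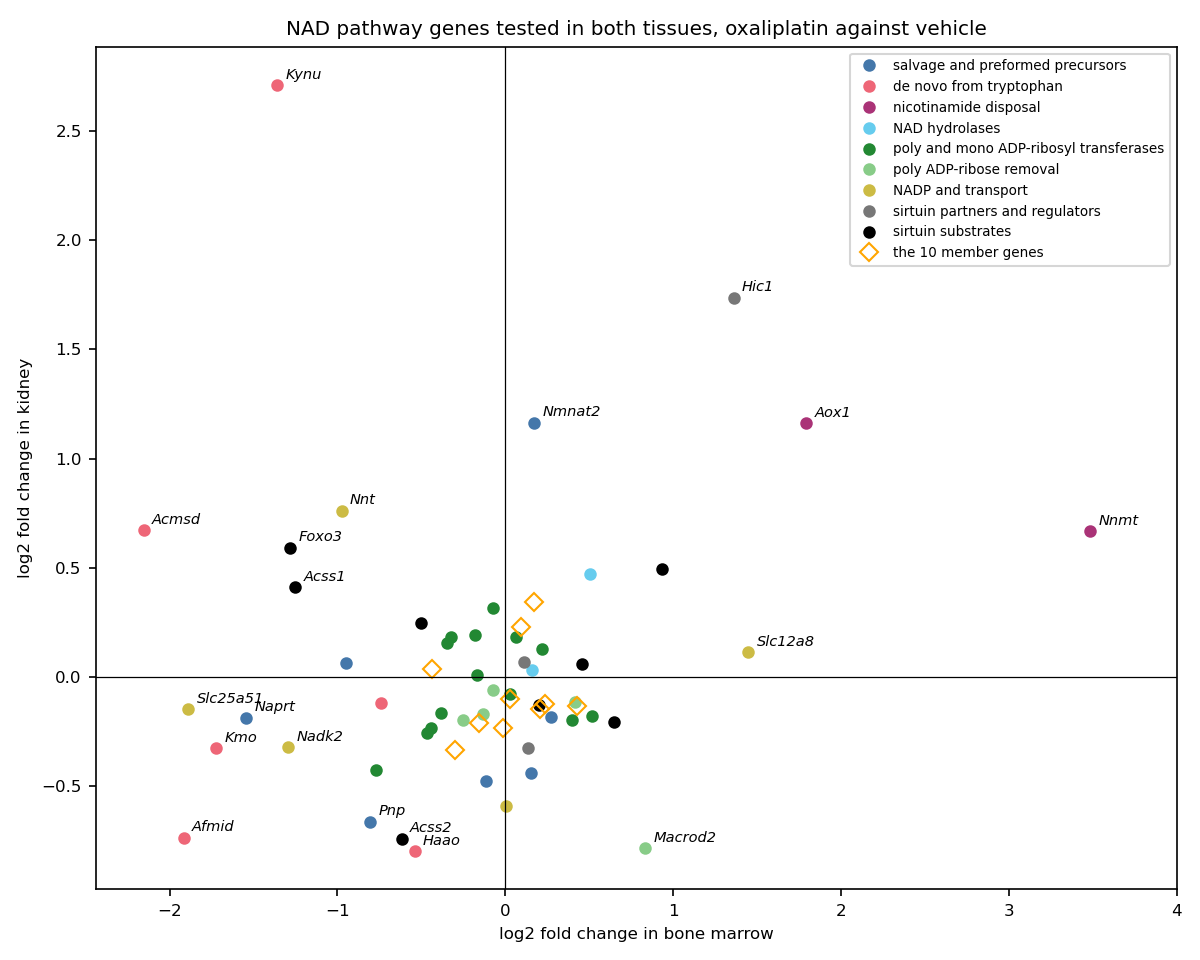
Log2 fold change after oxaliplatin in bone marrow (horizontal) and kidney (vertical) for each gene of the wider NAD list tested in both tissues, coloured by role, with the 10 genes as open diamonds. Kynu and Acmsd lie at the upper left, lower in marrow and higher in kidney, and the 10 genes lie near the centre.

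In the tryptophan route, single genes moved in opposite directions in the 2 tissues. In marrow 5 of its 7 tested genes fell and none rose, while in kidney 4 of 7 fell and 2 rose, beside 16.8% of all marrow genes and 15% of all kidney genes that fell. Kynu encodes kynureninase, which makes the hydroxyanthranilate used further down the route. In kidney it measured 4.03, 4.73, 2.76, 3.58 and 4.01 CPM with vehicle and 32.4, 16.7, 21.1, 24.5 and 30.9 CPM with oxaliplatin in mice 1 to 5. All treated mice lay far above all controls, and the log2 fold change was 2.71 with a standard error of 0.19 (adjusted p = 6.4e-07, edgeR). In marrow Kynu went the other way, from 3.89 ± 0.649 to 1.52 ± 0.630 CPM (SD, n = 5), a log2 fold change of -1.36 (adjusted p = 0.00531, edgeR). The difference between tissues was 4.03 on the log2 scale with a standard error of 0.36 (adjusted p = 2.49e-08, edgeR).

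Acmsd encodes the decarboxylase that diverts an intermediate of this route away from NAD. It measured 8.86, 11, 9.96, 11.9 and 9.42 CPM in marrow with vehicle and 1.04, 2.16, 3.92, 2.34 and 1.99 CPM with oxaliplatin. In kidney the values were 61.1, 45.0, 49.0, 40.9 and 45.9 CPM with vehicle and 74.0, 78.8, 71.5, 74.6 and 86.9 CPM with oxaliplatin. The groups were separate in both tissues and in opposite directions, with log2 fold changes of -2.15 in marrow (adjusted p = 5.69e-05, edgeR) and 0.67 in kidney (adjusted p = 6.35e-05, edgeR). The formamidase gene Afmid fell in both, from 14.6 ± 1.90 to 3.87 ± 0.228 CPM in marrow and from 40.4 ± 2.95 to 24.2 ± 3.19 CPM in kidney (SD, n = 5). Kmo, the kynurenine monooxygenase, fell from 16.6 ± 1.52 to 5.03 ± 0.927 CPM in marrow and from 125 ± 6.52 to 99.9 ± 4.10 CPM in kidney. The dioxygenase gene Haao fell in kidney, from 242 ± 24.9 to 139 ± 28.2 CPM, and its marrow means of 25.3 ± 4.00 and 17.4 ± 7.14 CPM overlapped. Qprt, which joins the route to the nicotinate branch, fell in marrow from 4.18 ± 0.964 to 2.5 ± 0.611 CPM with overlapping groups, and in kidney averaged 96.5 ± 5.54 and 88.9 ± 9.25 CPM (adjusted p = 0.251, edgeR).

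**Figure D4:**
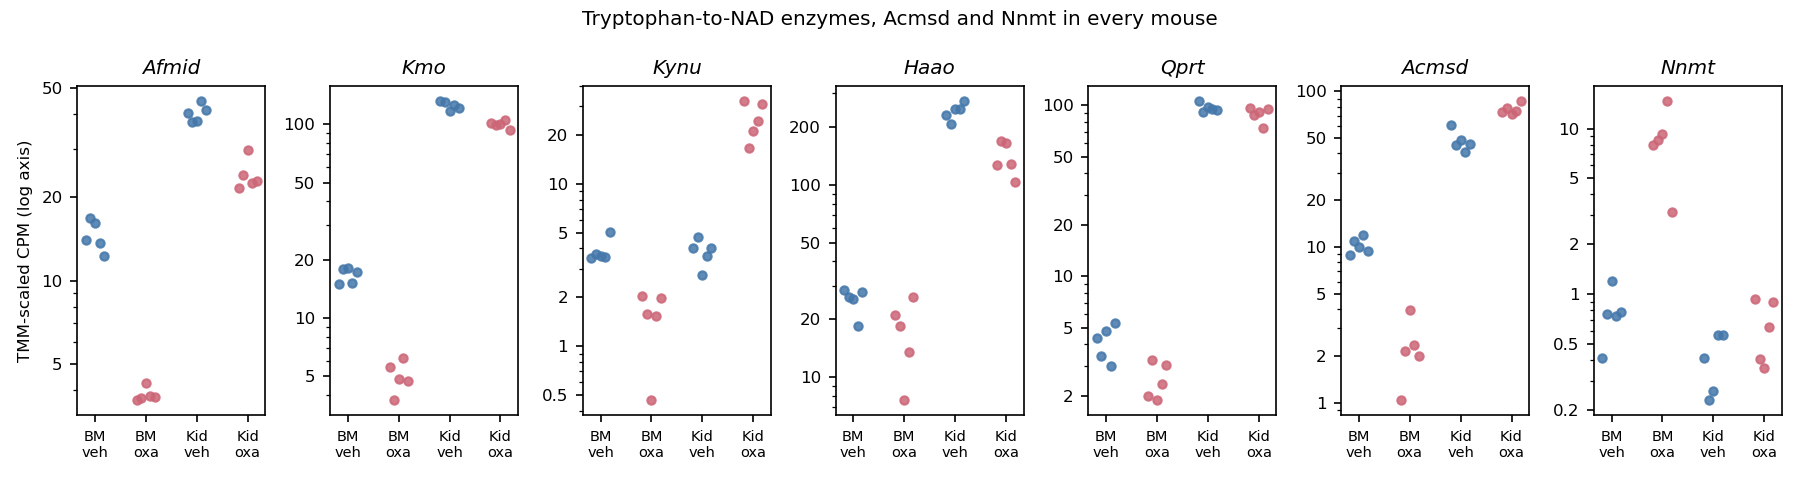
TMM-scaled CPM (log axis, one scale per panel) of the tryptophan route genes Afmid, Kmo, Kynu, Haao and Qprt, of Acmsd and of Nnmt in every mouse, for bone marrow (BM) and kidney (Kid) with vehicle (veh, blue) or oxaliplatin (oxa, red). Points are mice, 5 per group. Kynu and Acmsd separate in opposite directions in the tissues, and Nnmt separates in marrow alone.

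Nnmt encodes the methyltransferase that clears nicotinamide before Nampt can salvage it. In marrow it measured 0.411, 0.757, 1.20, 0.741 and 0.780 CPM with vehicle and 7.95, 8.52, 9.32, 14.7 and 3.13 CPM with oxaliplatin. Every treated mouse lay above every control, mouse 4 the highest and mouse 5 the lowest. The log2 fold change of 3.49 with a standard error of 0.39 passed (adjusted p = 1.88e-05, edgeR), while in kidney, at means of 0.406 ± 0.161 and 0.646 ± 0.268 CPM, Nnmt did not (adjusted p = 0.212, edgeR). Aox1, an oxidase that acts on the methylated product, rose in marrow from 1.65 ± 0.446 to 5.71 ± 3.17 CPM and in kidney from 0.877 ± 0.271 to 1.96 ± 0.683 CPM, with overlapping groups in both.

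Among the salvage genes other than Nampt, 3 of 7 tested fell in marrow and none rose, while in kidney 3 fell and 1 rose, beside the same 16.8% and 15% of all genes that fell. In marrow Naprt, which starts the nicotinate branch, fell from 13.2 ± 1.38 to 4.54 ± 1.28 CPM (SD, n = 5), and Nmnat3, a mitochondrial adenylyltransferase that completes NAD, fell from 41 ± 3.86 to 21.3 ± 5.46 CPM. Pnp, a nucleoside phosphorylase that can also split nicotinamide riboside, fell in both tissues, from 50.2 ± 4.08 to 28.7 ± 7.77 CPM in marrow and from 17.4 ± 2.18 to 11 ± 0.759 CPM in kidney. Nmnat2, the cytosolic counterpart best known from neurons, rose in kidney at very low levels, from 0.273 ± 0.205 to 0.624 ± 0.165 CPM with as few as 4 counts in a library. It passed narrowly (adjusted p = 0.0476, edgeR) with overlapping groups, vehicle-treated mouse 1, at 0.635 CPM, lying above every treated mouse except mouse 2.

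Genes of NADP synthesis and NAD transport were lower in marrow for 3 of 5 tested and higher for 1, beside 16.8% and 16.3% of all genes. Slc25a51, the mitochondrial NAD carrier, fell from 481 ± 65.5 to 130 ± 18.4 CPM in marrow (log2 fold change -1.89, adjusted p = 4.21e-07, edgeR), and in kidney averaged 253 ± 3.38 and 228 ± 12.1 CPM (adjusted p = 0.0748, edgeR). Nadk2, the mitochondrial NAD kinase, fell in marrow from 162 ± 11.7 to 65.9 ± 12.4 CPM and in kidney from 128 ± 7.81 to 102 ± 6.11 CPM (adjusted p = 0.00147, edgeR). Nadk, its cytosolic counterpart, averaged 241 ± 16.9 and 242 ± 51.4 CPM in marrow and fell in kidney from 280 ± 24.5 to 186 ± 23.0 CPM. The transhydrogenase gene Nnt was low throughout, falling in marrow from 3.53 ± 0.628 to 1.80 ± 0.656 CPM. In kidney Nnt rose from 1.71 ± 0.657 to 2.91 ± 0.614 CPM with overlapping groups (adjusted p = 0.0227, edgeR). Slc12a8, proposed as a carrier of nicotinamide mononucleotide, rose in marrow from 0.278 ± 0.121 to 0.762 ± 0.170 CPM, again with as few as 4 counts in a library.

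Of the 14 poly and mono ADP-ribosyl transferases other than Parp1, 2 rose and 5 fell in marrow, and 1 rose and 1 fell in kidney, where 29.4% of all genes passed, compared with 33.1% in marrow. Only Parp16, an endoplasmic reticulum enzyme, changed by more than 1.5-fold, from 17.8 ± 1.89 to 10.4 ± 1.73 CPM in marrow (SD, n = 5). Among 5 genes that remove ADP-ribose, 2 rose in marrow and 2 fell in kidney, beside 16.3% of all marrow genes higher and 15% of all kidney genes lower. Macrod2, a mono ADP-ribose hydrolase, rose from 1.80 ± 0.517 to 3.21 ± 0.712 CPM in marrow and fell from 117 ± 6.52 to 67.9 ± 16.0 CPM in kidney. The other 2 hydrolases of NAD, Bst1 and Sarm1, did not pass in marrow, and Bst1 rose in kidney from 5.59 ± 0.322 to 7.74 ± 1.36 CPM.

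Of the partners of the sirtuins, Hic1, a transcriptional repressor known to act on Sirt1, rose in both tissues. It measured 3.64, 3.93, 4.13, 4.50 and 2.37 CPM in marrow with vehicle and 12.6, 10.5, 8.67, 10.1 and 5.90 CPM with oxaliplatin, and its kidney means went from 13.6 ± 2.87 to 45.3 ± 21.1 CPM (SD, n = 5). The groups were separate in both tissues, with log2 fold changes of 1.36 in marrow (adjusted p = 0.000406, edgeR) and 1.74 in kidney (adjusted p = 0.00442, edgeR). Sirt1 passed in marrow alone, and a link between Hic1 and Sirt1 was not tested. Foxo3, a transcription factor deacetylated by Sirt1, measured 574, 589, 628, 583 and 534 CPM in marrow with vehicle and 227, 244, 239, 236 and 251 CPM with oxaliplatin. The groups lay far apart, with a log2 fold change of -1.28 (adjusted p = 3.83e-07, edgeR), while in kidney Foxo3 rose from 196 ± 25.7 to 296 ± 73.6 CPM.

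Among the other substrates, in marrow Acss1, a mitochondrial acetyl-CoA synthetase acted on by Sirt3, fell from 93.7 ± 13.0 to 39.4 ± 13.0 CPM (SD, n = 5), whereas in kidney it rose from 287 ± 23.7 to 383 ± 25.2 CPM (adjusted p = 0.000509, edgeR). Acss2, the cytosolic form acted on by Sirt1, fell in marrow from 22.2 ± 2.48 to 14.5 ± 2.53 CPM and in kidney from 325 ± 15.5 to 195 ± 33.1 CPM. Sod2, the mitochondrial superoxide dismutase, rose in marrow from 56.7 ± 6.03 to 89.0 ± 17.1 CPM and fell in kidney from 455 ± 19.5 to 394 ± 33.6 CPM (adjusted p = 0.0351, edgeR). The coactivator gene Ppargc1a rose in marrow at a low level, from 0.566 ± 0.238 to 1.09 ± 0.246 CPM, and in kidney from 87.3 ± 4.93 to 123 ± 10.5 CPM. In all, 3 of 8 tested substrates rose and 4 fell in marrow, and 4 rose and 2 fell in kidney, beside 33.1% and 29.4% of all genes passing in either direction. In marrow Nmrk2, Ido1, Ido2, Slc22a13 and Cps1, and in kidney Nmrk2, Tdo2, Ido1 and Cps1, had too few counts to be tested. A count of 3, used as the detection floor, equals 0.0668 to 0.0975 CPM in the marrow libraries and 0.09 to 0.13 CPM in the kidney libraries.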

How the data were processed

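The values are raw gene counts of each library, as the authors deposited them, 1 table for bone marrow and 1 for kidney, not normalized. The paper's methods give STAR and Partek Flow with uniquely aligned reads, a SMARTer kit and an RNA integrity number above 7, while the submitters' processing notes list STAR, featureCounts and Salmon and the labels describe ribosomal RNA removal, so chemistry and counting are given in 2 ways. Reads shared by overlapping genes, and by both strands where strand was ignored, can be split or lost. Each table had 55774 lines, of which 287 repeated an identifier and 1 was incomplete. Here, within each tissue, genes were filtered with filterByExpr (minimum count 10), TMM factors were computed, and edgeR 4.0.16 under R 4.3.3 (with limma 3.58.1) gave two-sided quasi-likelihood tests from a robust fit, 5 against 5 mice, with Benjamini-Hochberg adjustment over all genes tested. Standard errors are the log2 fold change over the root of F. The interaction was fitted over 20 libraries. Floors of 3 counts cover counting error only. Exon positions came from the GENCODE annotation of GRCm38, which holds 55141 of 55487 identifiers, and upstream windows from RefSeq on GRCm38.p6.

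The 10 genes, the list of 58 NAD genes and the marker lists were chosen with earlier results of these data known. The text names all 10 genes, every gene of the 58 past an adjusted p of 0.05 with a change beyond 1.5-fold in that tissue, and the 3 genes most correlated with Sirt1; Bst1 and Sarm1 are named as the remaining NAD hydrolases after their values were seen. In a set simulated from the marrow counts, 85 of 100 genes changed 1.5-fold were called, in a kidney set 86 of 100, and for the interaction 23 of 100. Among unchanged genes of these sets, 13, 5 and 7 were called. The simulation gave every gene the same fixed spread and changed only well-counted genes. Real spreads differed, with a coefficient of variation of 34.9% for Parp1 in treated marrow, so these shares do not give the power for the 10 genes. Every 2 libraries of a group differed beyond sampling noise (chi-square per degree of freedom of at least 7.3). Replicate numbers were not used to pair the samples in the main fits. Alternatives were DESeq2 1.42.0, size factors, library size alone, no filter except 1 count, a minimum of 10 counts in every library, removal of hemoglobin genes, a replicate block, Y-linked RNA as a covariate, a fold change beyond 1.5, each library left out in turn and, added after the values were seen, marrow without oxaliplatin-treated mice 3 and 4. Figures were drawn with matplotlib 3.10.9 in Python 3.11.15.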

Additional observations from a re-analysis of the deposited data

Results flagged for a closer look

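Nampt in marrow of oxaliplatin-treated mouse 2, at 112 CPM, lay apart from the other 4 treated mice, which measured between 91.4 and 96.8 CPM, with a gap of 0.735 of the group's range where 0.71 is the 95% limit for 5 samples. It was the only such sample in 40 sets of 5 mice (10 genes in 4 groups), and chance alone marks about 1 in 20 sets. The changes of 3 genes differed between the tissues by the interaction test in edgeR, with kidney minus marrow differences on the log2 scale of 0.41 for Sirt1 (adjusted p = 0.0244), -0.41 for Sirt2 (adjusted p = 0.0036) and -0.62 for Nampt (adjusted p = 0.00074).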

How the results depend on the processing

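The number of the 10 genes passing in marrow, 2, was 4 with library size alone (Sirt2 and Cd38 added) and 0 once a change beyond 1.5-fold was asked for. It was 5 without oxaliplatin-treated mice 3 and 4, where 7755 of 23214 genes passed in all. Those mice were picked after values of these genes were seen. The 5 include Sirt2, Parp1 and Cd38, of which the mice left out held extreme values, so these calls carry no test. With 1 library left out the number ranged from 2 to 4, the 4 coming without oxaliplatin-treated mouse 5. In kidney the number, 3, was 1 with no filter beyond 1 count and 0 beyond 1.5-fold, and ranged from 1 to 3 with 1 library left out, being 1 without vehicle-treated mouse 1 or 5. With library size alone the kidney number stayed 3 with Sirt6 in place of Sirt3, and with the covariate of Y-linked genes with Sirt6 in place of Cd38. For the difference between tissues the number, 3, was 1 beyond 1.5-fold, 2 with no filter beyond 1 count (Sirt1 lost) and ranged from 2 to 3 with 1 library left out. The 31 wider-list genes in marrow ranged from 27 to 33 with 1 library left out, and the 28 in kidney from 22 to 29 and were 13 beyond 1.5-fold. Sirt1 and Nampt in marrow and Sirt7 in kidney passed in every edgeR or DESeq2 setting that asked only for the adjusted p. The median change of all genes under library-size scaling was 0.11 in marrow and 0.16 in kidney, in place of -0.038 and 0.025, and the share of passing genes that were higher was 66.5% and 74.7%, in place of 49.2% and 49.0%. Sign changes touched only log2 fold changes that had not passed with all libraries and main settings. In marrow Sirt4 was 0.027 with DESeq2, 0.028 with size factors, 0.13 with library size, 0.018 without hemoglobin genes and 0.041 without mice 3 and 4, where Parp1 was -0.30. In kidney under library size Sirt5 was 0.003, Nampt 0.002 and Parp1 0.032. The difference between tissues became 0.019 for Sirt7 with at least 10 counts in every library and 0.014 with the covariate of Y-linked genes, and without mice 3 and 4 it became 0.011 for Sirt3 and 0.20 for Parp1. With 1 library left out, marrow Parp1 ranged from -0.20 to 0.16, Sirt4 from -0.067 to 0.022 and Sirt6 from -0.002 to 0.16, and the difference between tissues ranged from -0.35 to 0.057 for Parp1 and from -0.006 to 0.18 for Sirt6. The causes of these shifts were not tested.

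A replicate block gave 3 genes in marrow (Sirt7 added), 1 in kidney (Sirt7, with Sirt3 and Cd38 lost at adjusted p of 0.0548 and 0.0906 in edgeR) and 3 for the difference between tissues, and marrow Parp1 became -0.034. Vehicle and oxaliplatin samples with the same number, which are different mice, correlated between -0.11 and 0.23 in marrow and between -0.15 and 0.077 in kidney. Marrow and kidney samples with the same number correlated between -0.056 and 0.020 with vehicle and between -0.048 and 0.14 with oxaliplatin. The labels do not say that a number marks a shared mouse, and these values do not settle it. The numbers therefore name samples here, and the main interaction fit took the 20 libraries as independent. At these depths each of the 10 genes had at least 119 counts in every library, and in simulated sets 1.5-fold changes were called less often than 2-fold ones.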
